A study of Homo sapiens with 8 samples.

Results

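The genes described are those of the proteasome, taken from the deposited table as the probe sets with 1 gene symbol that starts with PSMA, PSMB, PSMC, PSMD, PSME, PSMF or PSMG. PSMB8 and PSMB9 were not included, and a gene with several probe sets was represented by the one with the highest mean over the 8 arrays. The rule found 48 genes on 95 probe sets, among 19775 genes with a single-symbol probe set. Of the 48, 40 encode proteasome subunits, assembly chaperones, activators or an inhibitor, and 8 are other transcripts whose symbols begin the same way (PSMA3-AS1, PSMB8-AS1, PSMC3IP, PSMD14-DT, PSMD6-AS2, PSMD7-DT, PSME3IP1 and PSMG3-AS1). The members tested were 45, of which 39 are proteasome genes, and each of the 45 was at or above log2 5 on all 8 arrays. PSMA8, PSMD14-DT and PSMD7-DT stayed under that floor and were not tested. Probe sets that carry several symbols were left out, 5 of them naming a proteasome gene, so PSMA6 and PSME2 have no values here. PSMC5, PSMD7 and PSMD13 were not analysed here either, and the counts by particle part cover the genes that were.

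Total RNA of Reh cells was hybridised to 8 Affymetrix U133 Plus 2.0 arrays, 2 biological replicates for each of 4 transfections. Reh is an established human B-cell precursor leukemia line, although the labels give its malignancy as non-Hodgkin lymphoma. One group received an shRNA against CBFA2T3, a transcriptional corepressor, as a transient knockdown. Another transiently expressed IKKβ(EE), a constitutively active form of the kinase that switches on NF-κB. A further group received both, and the controls received a control shRNA and are titled as mock. Whether a control shRNA was also given to the IKKβ(EE) cells is not stated. All 4 groups are 1 cell line under transient transfection, and the share of transfected cells is not stated. In RNA pooled from a whole culture, fewer cells that express a gene and less of its RNA per cell cannot be told apart. Values are log2 intensities from RMA, and a change is a difference of group means on that scale with its standard error, from limma fitted over all 24481 tested probe sets, with 2 arrays per group.

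The proteasome degrades proteins tagged with ubiquitin. Its barrel-shaped core holds outer rings of alpha subunits, which gate the entry, and inner rings of beta subunits, some of which carry the cutting sites. A regulatory cap, made of a base with ATPases that unfold the substrate and a lid that removes the ubiquitin, docks on the core, and dedicated chaperones assemble both. Lymphoid cells can exchange the constitutive catalytic subunits for inducible ones, which alters the peptides offered to class I antigen presentation, and alternative activators or an inhibitor can bind the core in place of the cap.

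The line matched its label in that 8 of 9 B precursor marker genes were above the floor on every array, with VPREB1 under it at a mean of 3.22. With both constructs all 8 of these lay below control, where 46.3% of all tested probe sets lay above it. In limma 0 of the 8 passed. With a replicate block 2 passed as lower, where 12% of all tested probe sets did. The 2 genes were DNTT at -0.46 ± 0.16 (limma adjusted p = 0.117, and 0.0326 with the block) and CD79B at -0.37 ± 0.12 (0.108, and 0.0481 with the block). With the CBFA2T3 shRNA 5 of the 8 lay below control and 3 above, and with IKKβ(EE) 3 below and 5 above. Of all tested probe sets 51.8% and 44.4% lay above control there. The linear signal summed over the 9 genes was 29520 and 27710 under CBFA2T3 shRNA, 32720 and 33030 under IKKβ(EE) and 28290 and 24340 with both, against 32600 and 33580 in control cells. Such a sum weighs the brightest gene most, here DNTT with a mean of 13.50, and does not describe the list as a whole. No T or NK marker of 6 was above the floor on every array (means of 3.21 to 5.09), and of 6 myeloid markers only ITGAM was, with a mean of 6.03. NKG7, an NK marker near the floor with a mean of 5.09, was 0.92 ± 0.16 above control with the shRNA and 0.89 ± 0.16 above it with both. It was under the floor on the control arrays (4.76 and 4.51) and the IKKβ(EE) arrays (4.60 and 4.69). NKG7 entered the fit only through the groups where it was high, so no p-value is given for it. ITGAM was 0.99 ± 0.39 above control with IKKβ(EE) (limma adjusted p = 0.484, and 0.0438 with the block) and 0.71 ± 0.39 with both (0.286, and 0.0388 with the block). The part of these markers in the results was not tested. The targets lay in the labelled directions. CBFA2T3 averaged 8.26 with the shRNA, against 9.26 in control cells, a change of -0.999 ± 0.16 (limma adjusted p = 0.0518, and 0.0100 with a block for the replicate number). A probe set of IKBKB, the gene of the kinase, rose by 6.63 ± 0.30 with IKKβ(EE) and by 7.71 ± 0.30 with both (limma adjusted p = 0.000312 and 0.000148). It was at 10.85 and 10.39 with IKKβ(EE) alone and at 11.45 and 11.97 with both, and the part of that gap in the results was not tested.

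Proteasome genes were bright on these arrays and showed small differences. Their median log2 intensity was 11.04, against 7.33 over all tested probe sets, and single arrays ran from 8.56 to 13.09. These medians are not like for like, since each member is its gene's brightest probe set and the background holds every tested one. Across the 8 arrays a gene's highest and lowest value lay between 0.15 and 0.79 apart. None of the 45 tested members passed an adjusted p of 0.05 in limma in any of the 6 comparisons. Over all tested probe sets the fit called 0.69% under CBFA2T3 shRNA, 0.229% under IKKβ(EE) and 8.43% with both, each against control, and 0.862% for both against the shRNA alone, 0.143% for both against IKKβ(EE) alone and 0.0123% for the interaction. Under an unadjusted 0.05 the members numbered 0 under CBFA2T3 shRNA, 1 under IKKβ(EE) and 3 with both, against 16.2%, 9.76% and 27% of all tested probe sets.

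A missed threshold does not show that the groups were alike, so the intervals bear on how large a change the arrays leave room for. The 95% interval of every one of the 45 members lay within a 2-fold change in all 3 comparisons against control. The bound farthest from 0 was 0.87 under CBFA2T3 shRNA, 0.84 under IKKβ(EE) and 0.89 with both, each time for PSMC3. Of all tested probe sets, 89.7% for the shRNA, 91.4% for IKKβ(EE) and 83.5% for both had intervals within those bounds. The median size of a change among the 39 proteasome genes was 0.08 for the shRNA, 0.08 for IKKβ(EE) and 0.15 for both, against 0.16, 0.15 and 0.21 over all tested probe sets in these 3 comparisons. That background also holds dimmer second probe sets, while each member is its gene's brightest, so these sizes are not like for like.

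No single gene passed, and the counts by direction were as follows. With both constructs, 28 of 39 proteasome genes were above control (median 0.10), against 46.3% of all tested probe sets (median -0.03). With the CBFA2T3 shRNA 26 of 39 were above control (median 0.06), against 51.8% of all tested (median 0.01). With IKKβ(EE) 12 of 39 were above control (median -0.05), against 44.4% of all tested (median -0.03). Arrays of the groups did not overlap for 15 genes above and 3 below control with both, where the background was 25.5% and 30.2%. With the CBFA2T3 shRNA the counts were 12 above and 5 below (background 25.9% and 24%), and with IKKβ(EE) 1 above and 4 below (background 18.9% and 23.3%). These counts were not tested, and the 3 comparisons share the same 2 control arrays.

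**Figure D1:**
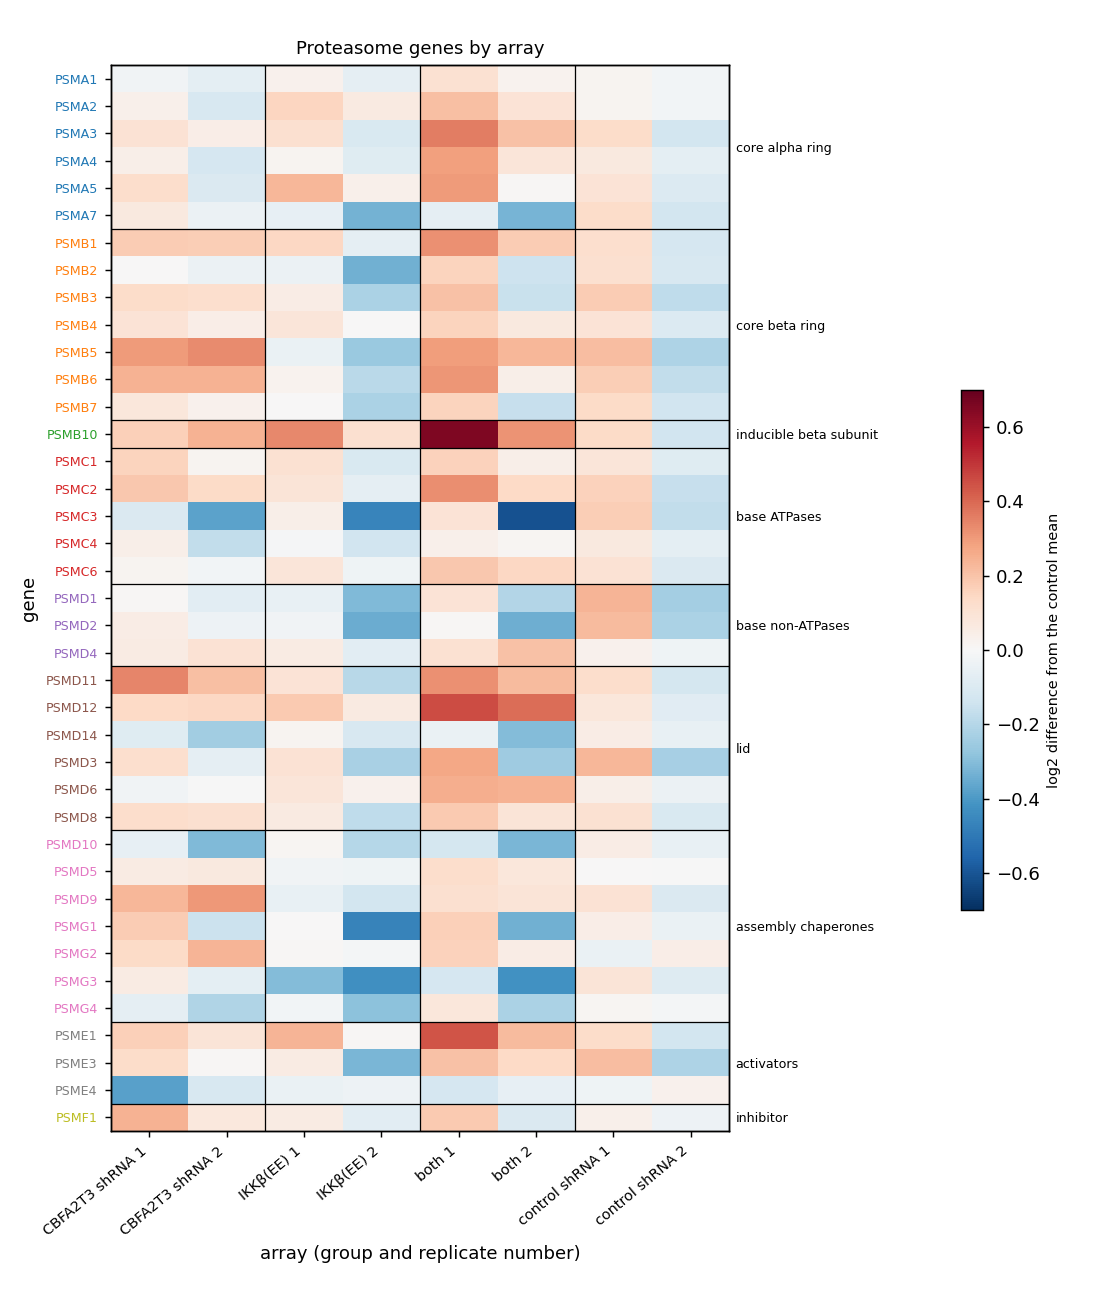
Log2 difference of each of the 39 tested proteasome genes (rows, grouped by particle part) from its control mean, on each of the 8 arrays (columns, by group and replicate number). The first array with both constructs is the reddest column, and the second array of the IKKβ(EE) and of the control group are mostly blue.

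**Figure D2:**
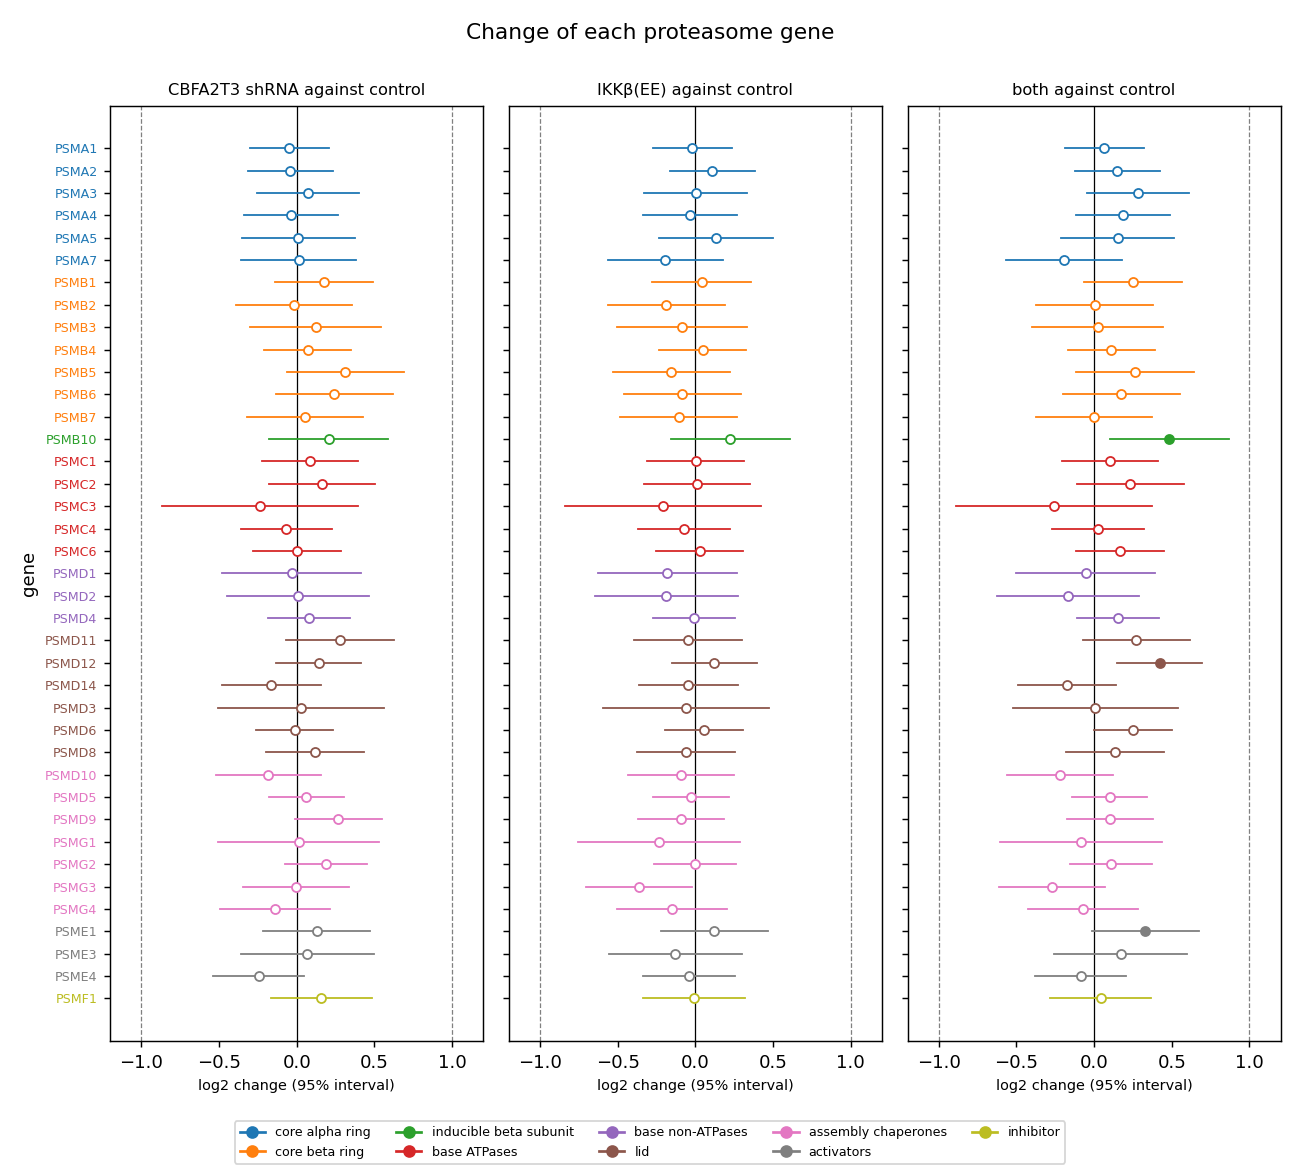
Change of each tested proteasome gene against control on the log2 scale (points) with its 95% interval (lines), in the 3 comparisons. All intervals stay inside the dashed lines at a 2-fold change, and filled points mark PSMD12, PSMB10 and PSME1, which had an adjusted p under 0.05 when the replicate number was a block.

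Adding the replicate number to the fit as a block brought 3 of 45 members past the threshold, all in cells with both constructs and all above control: PSMD12, PSMB10 and PSME1. In that fit 23.7% of all tested probe sets passed with both, 11.8% above and 12% below control, so the members' share of 6.67% lay under the background. For 1 probe set per gene the block fit called no member in the other comparisons, where it called 7.72%, 3.39%, 5.08%, 4.56% and 0.0123% of all tested probe sets.

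PSMB10 is the inducible catalytic beta subunit that replaces PSMB7 in the immunoproteasome, the form of the core made under interferon. PSMB10 was at 10.96 and 11.04 in CBFA2T3 shRNA cells, 11.13 and 10.90 in IKKβ(EE) cells and 11.45 and 11.11 in cells with both, against 10.93 and 10.66 in control cells. The first array with both constructs was the highest of the 8, the second lay just under the first IKKβ(EE) array, and neither overlapped the control arrays. The change was 0.48 ± 0.16 (interval 0.10 to 0.87), or 1.40-fold, with a limma adjusted p of 0.112, and 0.0300 with the replicate block. With either construct alone it was 0.21 ± 0.16 for the shRNA and 0.22 ± 0.16 for IKKβ(EE).

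PSMD12 is a scaffold subunit of the lid. PSMD12 had 10.48 and 10.48 on the CBFA2T3 shRNA arrays, 10.52 and 10.40 on the IKKβ(EE) arrays and 10.79 and 10.73 with both, against 10.42 and 10.26 on the control arrays. Here the arrays with both constructs stood above all 6 others. The change was 0.42 ± 0.12 (interval 0.15 to 0.69), or 1.34-fold, with a limma adjusted p of 0.0681, and 0.0219 with the block. A second, dimmer probe set of PSMD12 gave -0.13 ± 0.19 in the same comparison (limma adjusted p = 0.714).

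PSME1 encodes a subunit of the interferon-inducible activator ring that opens the core gate without ATP. PSME1 measured 12.49 and 12.42 under CBFA2T3 shRNA, 12.56 and 12.34 under IKKβ(EE) and 12.77 and 12.55 with both, against 12.45 and 12.20 with the control shRNA. The highest value was on the first array with both constructs, and the second lay just under the first IKKβ(EE) array. The change was 0.33 ± 0.15 (interval -0.01 to 0.68), or 1.26-fold, with a limma adjusted p of 0.202, and 0.0496 with the block. Leaving out any 1 of the 8 arrays from the blocked fit ended the call of PSME1 each time (adjusted p 0.0610 to 0.247). The same step kept PSMD12 in 4 of 8 fits (0.0354 to 0.156) and PSMB10 in 2 of 8 (0.0261 to 0.184), and each of those 2 calls was lost whenever an array of the control group or of the group with both was left out.

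**Figure D3:**
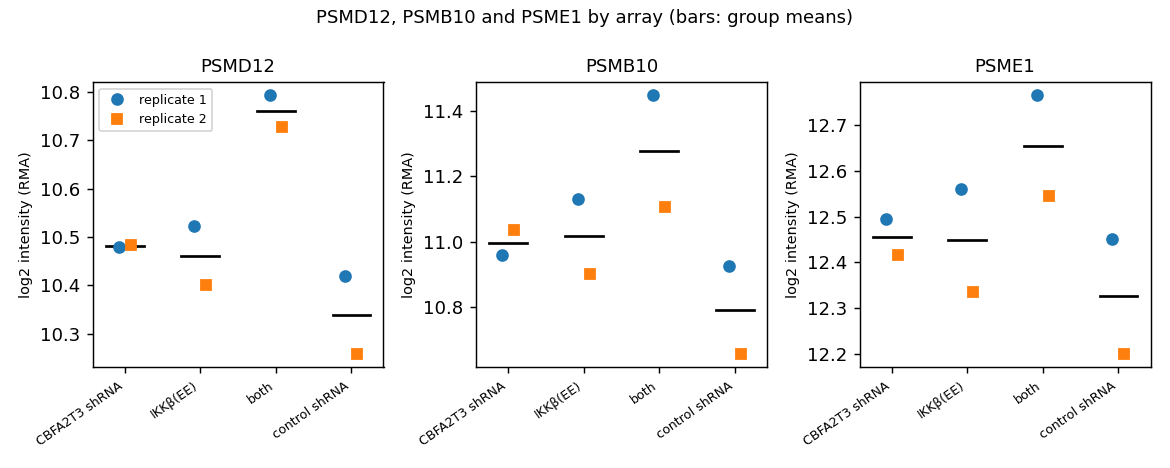
Log2 intensity of PSMD12, PSMB10 and PSME1 on each array by group, with replicate 1 as circles, replicate 2 as squares and the group mean as a bar. The arrays with both constructs lie above the control arrays for all 3 genes, and replicate 1 lies above replicate 2 in most groups.

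The promoters of these 3 genes are shown because the genes passed with the replicate block. Each carries a match to the core of a response element, the interferon-stimulated one in PSMB10 and the antioxidant one in the others. Each is the 250 bases before the RefSeq transcription start on GRCh38.p14, 5′ to 3′ on the gene's strand, at chr16:67936851-67937100 (minus strand) for PSMB10, chr17:67366578-67366827 (minus strand) for PSMD12 and chr14:24135944-24136193 (plus strand) for PSME1. Capitals mark the core of the interferon-stimulated response element (GAAA, a pair of any bases, GAAA) in PSMB10 and of the antioxidant response element (TGACNNNGC) in PSMD12 and PSME1.
PSMB10: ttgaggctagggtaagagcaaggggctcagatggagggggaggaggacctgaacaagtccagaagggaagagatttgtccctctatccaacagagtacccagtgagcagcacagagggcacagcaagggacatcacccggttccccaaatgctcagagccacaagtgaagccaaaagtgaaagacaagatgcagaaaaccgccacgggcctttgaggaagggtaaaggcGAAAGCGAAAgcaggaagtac
PSMD12: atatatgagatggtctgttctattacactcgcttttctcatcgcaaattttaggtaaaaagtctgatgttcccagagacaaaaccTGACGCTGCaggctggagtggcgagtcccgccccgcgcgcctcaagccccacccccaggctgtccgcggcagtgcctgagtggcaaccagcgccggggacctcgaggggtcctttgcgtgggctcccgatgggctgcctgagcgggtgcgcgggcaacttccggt
PSME1: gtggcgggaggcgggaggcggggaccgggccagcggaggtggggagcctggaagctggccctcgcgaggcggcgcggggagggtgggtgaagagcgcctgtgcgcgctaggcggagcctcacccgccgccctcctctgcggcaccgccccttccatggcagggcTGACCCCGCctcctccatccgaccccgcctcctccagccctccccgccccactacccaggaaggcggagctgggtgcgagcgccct
The match in PSMB10, GAAAGCGAAA, begins 21 bases before the start. Those in PSMD12, TGACGCTGC, and PSME1, TGACCCCGC, begin 165 and 86 bases before it.

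Of the 40 proteasome genes, 34 had a promoter in the RefSeq table, which holds 27305 promoters in all. On either strand, TGACNNNGC was found in 9 of 34 (26.5%), against 11.0% of all promoters. The interferon-stimulated core was found in 4 of 34 (11.8%), in PSMA4, PSMB10, PSMB4 and PSMG4, against 3.07%. The gamma-activated site TTCNNNGAA was found in 5 of 34 (14.7%), against 6.78%, and the kappaB consensus in 0 of 34, against 5.05%. A match is a description of letters and not of binding.

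In the alpha ring, which gates the core, 5 of 6 tested genes were above control with both constructs (median 0.15), 3 of 6 with the CBFA2T3 shRNA (median -0.01) and 3 of 6 with IKKβ(EE) (median -0.01). PSMA3 was at 11.71 and 11.66 in CBFA2T3 shRNA cells, 11.72 and 11.50 in IKKβ(EE) cells and 11.97 and 11.82 in cells with both, against 11.74 and 11.48 in control cells. Its change with both was 0.28 ± 0.14 (interval -0.05 to 0.61, limma adjusted p = 0.247), the largest of the ring. PSMA7 was the exception below control, since it had 12.07 and 11.97 on the CBFA2T3 shRNA arrays, 11.95 and 11.68 on the IKKβ(EE) arrays and 11.94 and 11.68 with both, against 12.14 and 11.88 on the control arrays. The groups overlapped, with changes of 0.01 ± 0.16 under CBFA2T3 shRNA, -0.19 ± 0.16 under IKKβ(EE) and -0.19 ± 0.16 with both. Dimmer probe sets of PSMA7 and PSMA2 had the opposite sign to the chosen ones with both, at 0.09 ± 0.19 and -0.30 ± 0.22. Their limma adjusted p was 0.818 and 0.417. The other unchosen sets of the ring kept the sign of the chosen one.

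PSMA5 measured 11.52 and 11.30 under CBFA2T3 shRNA, 11.63 and 11.43 under IKKβ(EE) and 11.69 and 11.41 with both, against 11.49 and 11.30 with the control shRNA. The groups overlapped, and the second array was the lower one in each. PSMA1 was at 11.83 and 11.78 in CBFA2T3 shRNA cells, 11.88 and 11.79 in IKKβ(EE) cells and 11.96 and 11.88 in cells with both, against 11.87 and 11.84 in control cells. All 8 arrays of PSMA1 lay within 0.18. PSMA2 and PSMA4 were at 0.15 ± 0.12 and 0.19 ± 0.13 with both constructs, and PSMA8, a testis form, was between 2.51 and 3.09 on all arrays.

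In the constitutive beta ring, 6 of 7 genes were above control with the CBFA2T3 shRNA (median 0.12), 2 of 7 with IKKβ(EE) (median -0.09) and 6 of 7 with both (median 0.11). PSMB5, which carries the chymotrypsin-like site that bortezomib blocks, had the largest value with the CBFA2T3 shRNA. PSMB5 had 10.91 and 10.94 on the CBFA2T3 shRNA arrays, 10.56 and 10.35 on the IKKβ(EE) arrays and 10.90 and 10.85 with both, against 10.82 and 10.40 on the control arrays. The arrays with the shRNA, with or without IKKβ(EE), were all at or above 10.85, while the other 4 ran from 10.35 to 10.82. Its changes were 0.31 ± 0.16 under CBFA2T3 shRNA, -0.15 ± 0.16 under IKKβ(EE) and 0.26 ± 0.16 with both (limma adjusted p = 0.402, 0.766 and 0.339). Both constructs against IKKβ(EE) alone gave 0.42 ± 0.16 (interval 0.04 to 0.79, limma adjusted p = 0.289).

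PSMB7, with the trypsin-like site, measured 11.94 and 11.88 under CBFA2T3 shRNA, 11.86 and 11.63 under IKKβ(EE) and 12.01 and 11.70 with both, against 11.99 and 11.72 with the control shRNA. PSMB2, a non-catalytic subunit, was at 11.79 and 11.74 in CBFA2T3 shRNA cells, 11.75 and 11.45 in IKKβ(EE) cells and 11.94 and 11.64 in cells with both, against 11.90 and 11.67 in control cells. For both genes the groups overlapped, and the second IKKβ(EE) array was the lowest of the 8. PSMB4, also non-catalytic, had 12.69 and 12.64 on the CBFA2T3 shRNA arrays, 12.68 and 12.60 on the IKKβ(EE) arrays and 12.74 and 12.66 with both, against 12.69 and 12.49 on the control arrays. PSMB6, with the caspase-like site, and PSMB1 and PSMB3 had changes with both constructs of 0.18 ± 0.16, 0.25 ± 0.14 and 0.02 ± 0.18.

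The inducible catalytic subunits were set against the constitutive ones they replace, a comparison chosen after values had been seen and given as a description. PSMB8 and PSMB9 are not among the 48 genes, and they served here as context. The log2 ratio of PSMB10 over PSMB7, less its control mean, was 0.09 and 0.21 under CBFA2T3 shRNA, 0.33 and 0.33 under IKKβ(EE) and 0.50 and 0.47 with both, against 0.00 and 0.00 in control cells. That of PSMB8 over PSMB5 was 0.09 and 0.06 in CBFA2T3 shRNA cells, 0.64 and 0.43 in IKKβ(EE) cells and 0.53 and 0.34 in cells with both, against -0.01 and 0.01 in control cells. That of PSMB9 over PSMB6 was -0.01 and 0.14 on the CBFA2T3 shRNA arrays, 0.57 and 0.59 on the IKKβ(EE) arrays and 0.63 and 0.57 with both, against -0.06 and 0.06 in control cells. In each pair all 4 arrays with IKKβ(EE) lay above all 4 without it, and how often other pairs separate so was not counted. Taken alone, PSMB9 kept this order, but PSMB8 and PSMB10 did not. Their second IKKβ(EE) array lay under the first control array, at 11.35 against 11.39 and 10.90 against 10.93. With IKKβ(EE) alone the constitutive PSMB5, PSMB6 and PSMB7 were at -0.15, -0.08 and -0.11. Their part in the ratios was not tested. PSMB9 rose with both constructs by 0.78 ± 0.16 (limma adjusted p = 0.0309), and PSMB8 was 0.69 ± 0.20 above control (0.0701, and 0.0107 with the block). With IKKβ(EE) alone PSMB8 was at 0.38 ± 0.20 (limma adjusted p = 0.579, and 0.172 with the block). PSMB9 was at 0.50 ± 0.16 there (limma adjusted p = 0.369, and 0.0987 with the block), so neither passed.

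**Figure D4:**
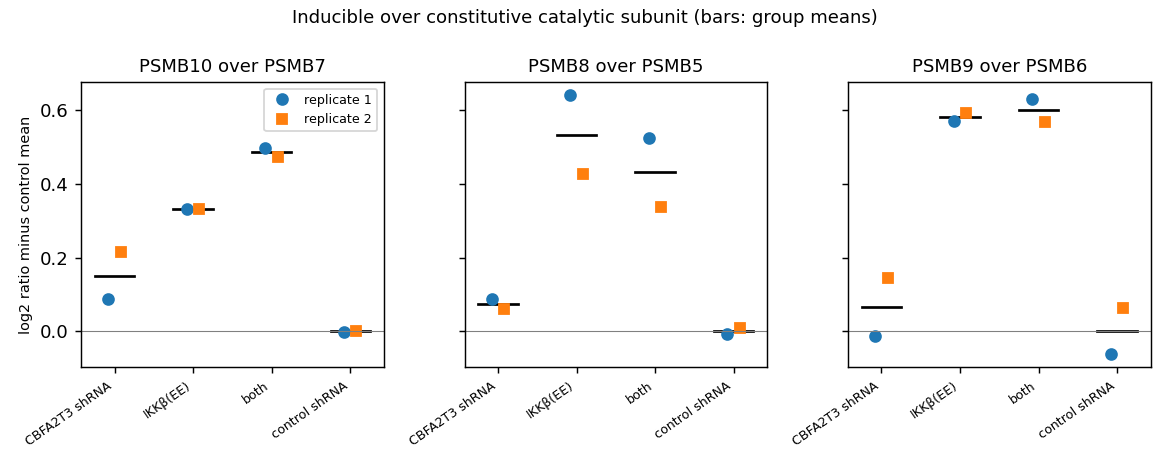
Log2 ratio of each inducible catalytic subunit over the constitutive subunit it replaces, less the control mean, on each array by group, with group means as bars. In all 3 pairs the IKKβ(EE) arrays and the arrays with both constructs lie at or above 0.33, and the other arrays lie at or below 0.21.

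In the base, the ATPases that unfold substrates gave 4 of 5 genes above control with both constructs (median 0.10), and 3 of 5 with either construct alone (median 0.00 each). PSMC2 measured 11.61 and 11.56 under CBFA2T3 shRNA, 11.51 and 11.36 under IKKβ(EE) and 11.75 and 11.56 with both, against 11.58 and 11.26 with the control shRNA. Its change with both was 0.23 ± 0.15 (limma adjusted p = 0.348). The dimmer probe sets of PSMC2 had the opposite sign with both, at -0.69 ± 0.29 and -0.43 ± 0.38 (limma adjusted p = 0.181 and 0.509). PSMC3 was at 10.37 and 10.10 in CBFA2T3 shRNA cells, 10.52 and 10.01 in IKKβ(EE) cells and 10.57 and 9.87 in cells with both, against 10.65 and 10.30 in control cells. PSMC3 varied more between replicate numbers than between groups, with changes of -0.24 ± 0.27 under CBFA2T3 shRNA, -0.21 ± 0.27 under IKKβ(EE) and -0.26 ± 0.27 with both. PSMC6 had 11.68 and 11.64 on the CBFA2T3 shRNA arrays, 11.75 and 11.63 on the IKKβ(EE) arrays and 11.85 and 11.81 with both, against 11.77 and 11.56 on the control arrays. Its arrays with both constructs were the highest 2 of the 8. PSMC1 and PSMC4 were at 0.10 ± 0.13 and 0.02 ± 0.13 with both.

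The non-ATPase subunits of the base hold the ubiquitin receptors and the platform on which they sit. None of 3 was above control with IKKβ(EE) (median -0.18), 2 of 3 were with the CBFA2T3 shRNA (median 0.01) and 1 of 3 with both (median -0.05). PSMD4, a ubiquitin receptor, measured 11.04 and 11.08 under CBFA2T3 shRNA, 11.04 and 10.91 under IKKβ(EE) and 11.09 and 11.19 with both, against 11.01 and 10.96 with the control shRNA. It was the gene of the 3 above control with both, at 0.15 ± 0.11 (limma adjusted p = 0.424). PSMD1, a scaffold, was at 10.53 and 10.45 in CBFA2T3 shRNA cells, 10.47 and 10.21 in IKKβ(EE) cells and 10.62 and 10.32 in cells with both, against 10.76 and 10.28 in control cells. PSMD2, the other scaffold, had 10.83 and 10.74 on the CBFA2T3 shRNA arrays, 10.76 and 10.43 on the IKKβ(EE) arrays and 10.79 and 10.44 with both, against 11.00 and 10.56 on the control arrays. For PSMD1 and PSMD2 the first control array was the highest of all 8, and the second IKKβ(EE) array was the lowest.

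In the lid, 5 of 6 genes were above control with both constructs (median 0.19), 4 of 6 with the CBFA2T3 shRNA (median 0.07) and 2 of 6 with IKKβ(EE) (median -0.05). PSMD11, a scaffold subunit, measured 10.68 and 10.55 under CBFA2T3 shRNA, 10.43 and 10.14 under IKKβ(EE) and 10.66 and 10.56 with both, against 10.46 and 10.21 with the control shRNA. As for PSMB5, the 4 arrays with the shRNA lay above the other 4, and the share of all tested probe sets with such a split was not counted. The changes were 0.28 ± 0.15 under CBFA2T3 shRNA, -0.05 ± 0.15 under IKKβ(EE) and 0.27 ± 0.15 with both (limma adjusted p = 0.420, 0.925 and 0.285). A dimmer probe set of PSMD11 gave -0.04 ± 0.14 with the shRNA and -0.12 ± 0.14 with both (limma adjusted p = 0.926 and 0.616). Its highest array was the first control array. PSMD14, the enzyme that cuts ubiquitin off the substrate, was at 11.29 and 11.14 in CBFA2T3 shRNA cells, 11.40 and 11.27 in IKKβ(EE) cells and 11.33 and 11.08 in cells with both, against 11.43 and 11.33 in control cells. PSMD14 was the lid gene lowest against control in both comparisons that include the shRNA, at -0.16 ± 0.14 with the shRNA and -0.17 ± 0.14 with both. PSMD3 had 9.27 and 9.09 on the CBFA2T3 shRNA arrays, 9.25 and 8.92 on the IKKβ(EE) arrays and 9.42 and 8.90 with both, against 9.38 and 8.92 on the control arrays. PSMD6 was at 0.25 ± 0.11 with both (limma adjusted p = 0.182) and PSMD8 at 0.14 ± 0.13.

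The assembly chaperones, which are not part of the finished particle, had 0 of 7 genes above control with IKKβ(EE) (median -0.09). With the CBFA2T3 shRNA 4 of 7 were above control (median 0.01), and with both 3 of 7 (median -0.07). PSMG3, a core chaperone, measured 10.23 and 10.10 under CBFA2T3 shRNA, 9.87 and 9.74 under IKKβ(EE) and 10.05 and 9.74 with both, against 10.26 and 10.08 with the control shRNA. Both IKKβ(EE) arrays lay below both control arrays, with a change of -0.37 ± 0.15 (interval -0.71 to -0.02, limma adjusted p = 0.489). PSMG3 was the member under an unadjusted 0.05 in that comparison. PSMD9, a chaperone of the base, was at 10.92 and 10.99 in CBFA2T3 shRNA cells, 10.63 and 10.55 in IKKβ(EE) cells and 10.80 and 10.78 in cells with both, against 10.78 and 10.58 in control cells. The CBFA2T3 shRNA arrays were the highest 2, a change of 0.27 ± 0.12 (limma adjusted p = 0.324), the smallest adjusted p of any member for that shRNA.

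PSMD10, the base chaperone also known as gankyrin, had 10.61 and 10.36 on the CBFA2T3 shRNA arrays, 10.68 and 10.47 on the IKKβ(EE) arrays and 10.55 and 10.35 with both, against 10.72 and 10.61 on the control arrays. It was below control in each of the other groups, with changes of -0.18 ± 0.15, -0.09 ± 0.15 and -0.22 ± 0.15 for the CBFA2T3 shRNA, IKKβ(EE) and both. PSMG2, a core chaperone, measured 11.65 and 11.76 under CBFA2T3 shRNA, 11.53 and 11.51 under IKKβ(EE) and 11.68 and 11.57 with both, against 11.48 and 11.57 with the control shRNA. PSMG1, its partner, had changes of 0.01 ± 0.22 under CBFA2T3 shRNA, -0.23 ± 0.22 under IKKβ(EE) and -0.08 ± 0.22 with both, while PSMD5 and PSMG4 were at 0.10 ± 0.10 and -0.07 ± 0.15 with both.

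Among the activators, 2 of 3 genes were above control with the CBFA2T3 shRNA (median 0.07), 1 of 3 with IKKβ(EE) (median -0.04) and 2 of 3 with both (median 0.17). PSME1 was above control in all 3 comparisons. PSME3, which forms the nuclear activator ring, was at 9.01 and 8.89 in CBFA2T3 shRNA cells, 8.94 and 8.56 in IKKβ(EE) cells and 9.09 and 9.02 in cells with both, against 9.10 and 8.67 in control cells. PSME4, the large nuclear activator, had 9.56 and 9.83 on the CBFA2T3 shRNA arrays, 9.90 and 9.91 on the IKKβ(EE) arrays and 9.83 and 9.88 with both, against 9.91 and 9.97 on the control arrays. The first CBFA2T3 shRNA array of PSME4 was lowest of the 8, and the change was -0.24 ± 0.13 (limma adjusted p = 0.398).

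PSMF1, named as an inhibitor of the core, measured 9.26 and 9.09 under CBFA2T3 shRNA, 9.07 and 8.94 under IKKβ(EE) and 9.20 and 8.91 with both, against 9.05 and 8.98 with the control shRNA. Its changes were 0.16 ± 0.14 under CBFA2T3 shRNA, -0.01 ± 0.14 under IKKβ(EE) and 0.04 ± 0.14 with both. A dimmer probe set of PSMF1 measured 8.19 and 8.20 under CBFA2T3 shRNA, 8.08 and 7.78 under IKKβ(EE) and 8.34 and 8.47 with both, against 7.92 and 7.75 with the control shRNA. It passed with both constructs, at 0.57 ± 0.14 (limma adjusted p = 0.0478, and 0.0179 with the block). The remaining probe sets of PSMF1, 2 of its 4, were at -0.34 and -0.01 with both, and neither passed. Leaving out any 1 array gave an adjusted p of 0.0521 to 0.232 for it. Without the replicate block this was the 1 probe set called, in any comparison, among 80 tested probe sets of the members.

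In all, 22 genes had over 1 tested probe set. Of the 35 probe sets not chosen, 19 had the sign of the chosen one with both constructs and 16 the opposite sign. With the replicate block and both constructs, 5 of the 35 passed below control and 1 above, where 12% of all tested probe sets passed below and 11.8% above. In the same fit 2 of the 35 passed below control with the CBFA2T3 shRNA (background 3.74%) and 1 with IKKβ(EE) (background 0.437%). A dimmer set of PSMC2 measured 7.59 and 6.92 under CBFA2T3 shRNA, 8.02 and 7.65 under IKKβ(EE) and 7.69 and 7.05 with both, against 8.24 and 7.87 with the control shRNA. Its change was -0.80 ± 0.29 with the shRNA (limma adjusted p = 0.236, and 0.0121 with the block) and -0.69 ± 0.29 with both (0.181, and 0.00794 with the block), whereas the brighter chosen set was at 0.16 ± 0.15 and 0.23 ± 0.15. The remaining PSMC2 set was at -0.76 ± 0.38 with the shRNA and -0.43 ± 0.38 with both, and passed in neither fit (limma adjusted p = 0.0598 and 0.152 with the block). A dimmer set of PSME3 was below control in all 3 comparisons, at -0.41 ± 0.33 with the shRNA, -0.48 ± 0.33 with IKKβ(EE) and -0.52 ± 0.33 with both (limma adjusted p = 0.606, 0.660 and 0.357, and 0.0433, 0.0427 and 0.00972 with the block). The others that passed below control with both were sets of PSMD9, PSME3IP1 and PSME4.

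The 8 other transcripts were counted apart. Of the 6 tested, 1 was above control with the CBFA2T3 shRNA (median -0.12), 3 with IKKβ(EE) (median 0.02) and 1 with both (median -0.16). PSMC3IP, a recombination factor named here after its values were seen, was at 8.29 and 8.18 in CBFA2T3 shRNA cells, 8.16 and 8.35 in IKKβ(EE) cells and 8.29 and 7.65 in cells with both, against 8.43 and 8.24 in control cells. The second array with both constructs was the lowest of the 8, and the change with both was -0.37 ± 0.21 (limma adjusted p = 0.307). Without the first array of that group it was -0.69 (0.0359), so that call rested on 1 array. PSMB8-AS1, antisense to PSMB8, was at -0.26 ± 0.17.

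Genes of the same pathway with other names were counted from lists, which were chosen with earlier results of these data known. A list of 13 further genes held proteasome genes, such as ADRM1, a ubiquitin receptor, and POMP, a core chaperone. It also held partners that are not part of the particle, such as VCP, RAD23B and UBQLN1. Of the 13, 0 passed in limma in any comparison against control, and 0 had an unadjusted p under 0.05. Of 3 ubiquitin or ubiquitin-activating genes 0 passed, with 1 at an unadjusted p under 0.05 for both constructs, which passed above control with the replicate block. Of 7 regulators of proteasome genes, 2 rose with both constructs (background 4.68%), and 3 passed above control with the replicate block (background 11.8%). In direction they were split with both, 4 above control and 3 below. Those below were NGLY1 at -0.25 ± 0.12, NRF1 at -0.32 ± 0.14 and HSF1 at -0.17 ± 0.13, and none of them passed, with or without the block. NFE2L3, a relative of the factor that restores proteasome genes after inhibition, measured 5.47 and 5.71 under CBFA2T3 shRNA, 6.26 and 6.39 under IKKβ(EE) and 6.15 and 6.59 with both, against 5.43 and 5.23 with the control shRNA. All 4 arrays with IKKβ(EE) lay above the other 4, and the changes were 1.00 ± 0.18 with IKKβ(EE) (limma adjusted p = 0.103, and 0.0188 with the block) and 1.04 ± 0.18 with both (0.0193). The share of all tested probe sets with such a split was not counted. STAT3 rose with both by 0.62 ± 0.15 (limma adjusted p = 0.0441). NFE2L2, a main factor at antioxidant elements, was 0.54 ± 0.22 above control with both (0.163, and 0.0346 with the block).

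The inducible class I pathway, the genes that feed peptides from the proteasome to HLA, held more calls. This list was chosen with earlier results of these data known, so its counts are a description and not support. Each gene is its brightest probe set and the background holds every tested one, so the shares are not like for like. With both constructs 9 of 14 genes rose, against a background of 4.68%, and 13 of 14 were above control (median 0.70). With IKKβ(EE) 1 of 14 rose (background 0.221%) and 14 of 14 were above control (median 0.47), and with the CBFA2T3 shRNA 0 of 14 passed (2 under an unadjusted 0.05). With the replicate block 1 of 14 passed below control for the shRNA (background 3.74%), 5 of 14 above control for IKKβ(EE) (background 2.96%) and 12 of 14 above control for both (background 11.8%). TAP1, a peptide transporter, rose by 1.31 ± 0.16 with IKKβ(EE) and 2.03 ± 0.16 with both (limma adjusted p = 0.0288 and 0.00144). Against these, the median of the 39 proteasome genes was -0.05 with IKKβ(EE) and 0.10 with both.

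Both constructs were also compared with each alone. Against the CBFA2T3 shRNA alone, 22 of 39 proteasome genes were higher with both (median 0.02), and against IKKβ(EE) alone 34 of 39 (median 0.13), where 43.6% and 49.5% of all tested probe sets were higher. PSMD12 was 0.28 ± 0.12 above the shRNA alone and 0.30 ± 0.12 above IKKβ(EE) alone (limma adjusted p = 0.322 and 0.295). The interaction, which asks whether the constructs together differ from their separate changes added up, had 0 members under an unadjusted 0.05, against 2.17% of all tested probe sets, and its values ran from -0.11 to 0.26 over the proteasome genes.

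Arrays numbered 2 were lower than arrays numbered 1 for most proteasome genes, a comparison added after the data had been seen, from the replicate term of the blocked fit. The term was below 0 for 37 of 39 genes, against 52.3% of all tested probe sets, with a median of -0.17 against -0.01. The second array was lower in all 4 groups for 30 of 39 genes, against a background of 20%. PSMC3 (-0.46 ± 0.09) and PSMD3 (-0.37 ± 0.08) passed (limma adjusted p = 0.0299 and 0.0375), where 3.7% of all tested probe sets passed as lower. PSME4 was the 1 gene higher on the second array in all 4 groups, against a background of 18%. The labels do not say what the number marks.

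Array by array, the median deviation of the 39 genes from their own means was 0.07 and -0.01 under CBFA2T3 shRNA, 0.03 and -0.17 under IKKβ(EE) and 0.17 and 0.02 with both, against 0.06 and -0.13 in control cells. Over all tested probe sets the array medians stayed between -0.02 and 0.02. Above their own mean were 38 of 39 genes on the first array with both constructs, and 2 of 39 on the second IKKβ(EE) array. The part of this shared difference in the counts above and below control was not tested.

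**Figure D5:**
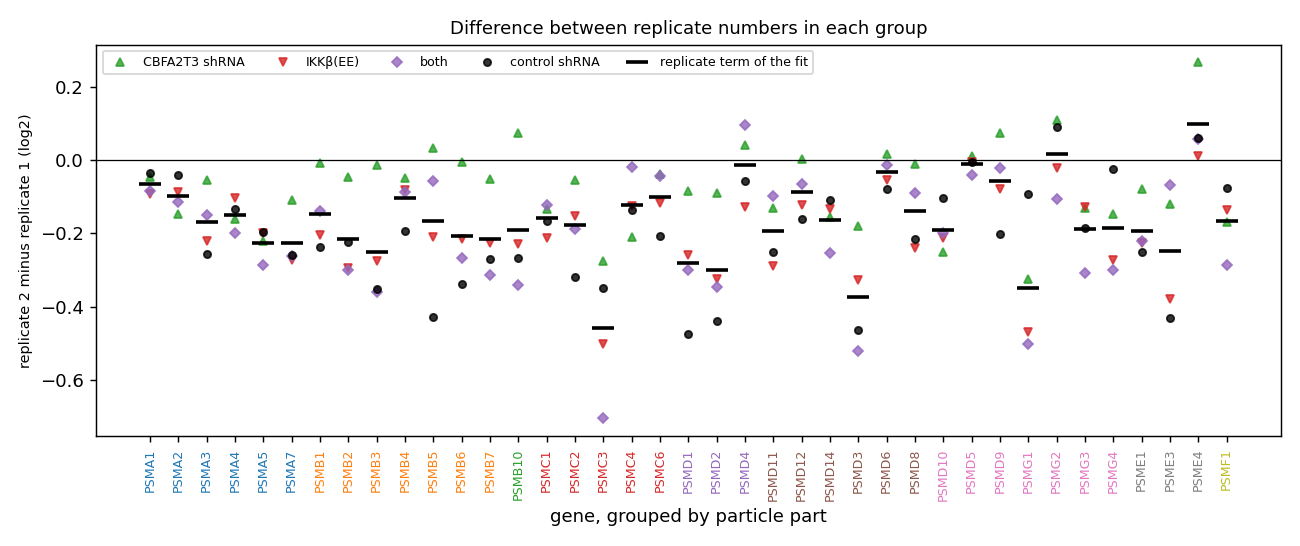
Log2 difference between replicate 2 and replicate 1 within each group (symbols), and the replicate term of the fit (dashes), for the 39 tested proteasome genes by particle part. The term is below 0 for 37 of 39 genes and is largest in size for PSMC3 at -0.46.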

How the data were processed

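Per the submitters' processing notes, the authors made the deposited log2 values with RMA (version not given), which corrects background, gives all arrays 1 distribution and summarises the probes of each set. Such scaling removes any shift shared by most transcripts. Base 2 was inferred from their range. Of 54675 probe sets, 62 controls and 30132 that reached log2 5 on fewer than 2 arrays were left out, leaving 24481. Symbols come from GEO's platform annotation.

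Members and gene lists were chosen with earlier results of these data known. limma 3.58.1 (R 4.3.3) fitted every probe set with 1 mean per group over 8 arrays (4 residual and 3.54 prior degrees of freedom). The 6 comparisons were two-sided and adjusted by Benjamini-Hochberg over all tested probe sets, with a threshold of 0.05. Errors after ± are standard errors. Precision is limited by the number of arrays, with a median standard error of 0.154 for both against control, and an exact permutation test of 2 against 2 cannot give a p under 0.333. The labels call the replicates biological and do not mention separate cultures, so p-values measure the spread between these arrays.

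Differences between replicates 2 and 1 correlated over probe sets in all 6 pairs of groups (0.344 to 0.577), and on that ground, not from the labels, equal numbers were treated as pairs. Values with the replicate block are given beside the named results whose call they change.

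Values on every array are given for members called in any comparison, with or without the block, and for the highest and lowest change of each particle part against control. The procedure was tested on simulated data. For both against control it recovered 7.31% of 1.5-fold, 51.5% of 2-fold and 88.9% of 4-fold changes, so most changes of 1.5-fold were missed. Alternatives were another floor, no floor, the replicate block, trended and robust moderation, cyclic loess, the probe set with the highest variance, all probe sets of the members, the 2 compared groups alone, and leaving out each array. Promoters are from RefSeq on GRCh38.p14.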

Additional observations from a re-analysis of the deposited data

How the results depend on the processing

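The count of members called for both constructs against control was 0 of 45, where 8.43% of all tested probe sets passed, and 23.7% with the replicate block. It became 3 with the replicate block, 1 with trended and robust moderation (PSMD12, limma adjusted p = 0.0458) and 1 of 80 (PSMF1) when all tested probe sets of the members were counted. Leaving out 1 array gave 0 to 1 (PSMC3IP, lower, without the first array with both constructs), and leaving out 1 array with the replicate block, chosen after seeing the data, gave 0 to 2. The cause was not tested. Counting all 80 tested probe sets with the replicate block was also chosen after seeing the data. It gave 9 for both against control (background 23.7%) and 2 for the CBFA2T3 shRNA against control (background 7.72%). It gave 1 for IKKβ(EE) against control (background 3.39%) and 1 (PSME4) for both against the shRNA alone (background 5.08%). No other alternative gave a call outside both against control. Of 1854 recomputed changes against control of the 27 members chosen for values on every array, 1807 kept their side of the threshold and either their sign or a shift under the SD between replicates, 10 came to pass it, and 37 changed sign by more than that SD, while 132 in all changed sign without being called. With 2 arrays per group, the 95% intervals in the text set the limit of what a missing call can say.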
